A study of Mus musculus with 6 samples.

Results

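The Slc25 genes encode the mitochondrial carrier family, which moves nucleotides, phosphate, carboxylates, amino acids and cofactors across the inner mitochondrial membrane. The members described here are the rows whose symbol is Slc25a followed by digits, other than Slc25a20, with a mean of at least 1 FPKM over the 6 libraries. FPKM gives a transcript level scaled by transcript length and by how many fragments each library had mapped. The rule gave 37 genes out of 45 with such a symbol and out of 23314 genes in all. RNA was sequenced from the quadriceps, the large thigh muscle, of mice of age 2 months. The K15SKO group, with genotype Myogenin-Cre/+;K15F/F, carried 1 copy of Cre driven by Myogenin and floxed Klf15, a zinc-finger transcription factor gene. The MyoCre group, Myogenin-Cre/+, carried the same Cre alone. Each group held 3 libraries, although the design text speaks of n = 4, and nothing in the labels ties each library to an animal of its own; p-values therefore reflect library-to-library spread, which may be technical. Myogenin is switched on in differentiating muscle, so cells of the muscle that never express it, such as fat, vessel and blood cells, keep Klf15.

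Carriers share a fold of repeated membrane helix pairs, and most exchange one solute for another. In muscle, the ADP/ATP and phosphate carriers feed ATP synthase and hand its product to the cytosol, and the 2-oxoglutarate/malate and aspartate/glutamate carriers move reducing equivalents from glycolysis into the matrix. Others bring in coenzyme A, NAD, iron, glutathione and amino acids for oxidation. These roles are background and are not measured here.

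Klf15 was listed at 2.22, 21.7 and 5.32 FPKM across K15SKO 1 to 3, compared with 35.2, 28.4 and 30.5 FPKM in MyoCre 1 to 3. This level is for the gene as a whole, while the floxed stretch is not described in the labels, so it is a limited check of the deletion. The muscle fibre markers Ttn, Neb, Ryr1, Des and Mb were present in every library, with summed levels of 3900 to 6552 FPKM in K15SKO and 3359 to 3902 FPKM in MyoCre. Markers of other cell types were listed too. The 10 hepatocyte markers summed to 76.3, 5692 and 16.2 FPKM across K15SKO 1 to 3, compared with 15.9, 25.9 and 13.8 FPKM in MyoCre 1 to 3, and none was at 0 in K15SKO. Of these, 9 were higher in every K15SKO library than in any MyoCre library; albumin (Alb) was at 21.1, 2203 and 4.36 FPKM across K15SKO 1 to 3, compared with at most 1.13 FPKM in MyoCre. The 8 adipocyte markers summed to 118 to 234 FPKM in K15SKO and 411 to 1064 FPKM in MyoCre, and all 8 were lower in every K15SKO library than in any MyoCre library. The 6 macrophage markers, on 7 rows, summed to 270, 154 and 27.9 FPKM across K15SKO 1 to 3, compared with 28.9 to 34.9 FPKM in MyoCre. Across the genes tested, K15SKO 3 correlated with the MyoCre libraries at 0.968 to 0.975 and with K15SKO 1 and 2 at 0.942 and 0.88. In whole muscle, fewer cells of a type and less RNA per cell cannot be told apart. Read depth is unknown, since the files hold no counts.

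Promoters are shown for 4 carriers on which the results below turn, because the deleted gene encodes a Krüppel-like factor, a family known to bind CACCC and GC-rich boxes. Slc25a4 and Slc25a5 are the adenine nucleotide carriers of muscle and of most other tissues. Slc25a36 is a pyrimidine nucleotide carrier that was lower in K15SKO, and Slc25a39 a glutathione carrier that was higher. The windows are the 300 bases around the RefSeq start on GRCm38.p6, most of them upstream, and capitals mark CACCC or GGGCGG on either strand. They lie at chr8:46211013-46211312 (minus strand), chrX:36795347-36795646 (plus), chr9:97110992-97111291 (minus) and chr11:102407468-102407767 (minus). The gene coordinates given below come from GENCODE, whose starts can differ from those of RefSeq. By those coordinates the Slc25a39 window lies wholly inside its gene, and the Slc25a4 and Slc25a36 windows lie partly inside theirs.
Slc25a4: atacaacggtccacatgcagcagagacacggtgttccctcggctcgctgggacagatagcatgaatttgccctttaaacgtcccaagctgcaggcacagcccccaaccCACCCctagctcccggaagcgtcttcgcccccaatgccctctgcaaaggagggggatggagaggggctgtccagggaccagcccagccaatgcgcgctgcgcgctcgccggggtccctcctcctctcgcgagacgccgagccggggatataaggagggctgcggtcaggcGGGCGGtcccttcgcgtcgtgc
Slc25a5: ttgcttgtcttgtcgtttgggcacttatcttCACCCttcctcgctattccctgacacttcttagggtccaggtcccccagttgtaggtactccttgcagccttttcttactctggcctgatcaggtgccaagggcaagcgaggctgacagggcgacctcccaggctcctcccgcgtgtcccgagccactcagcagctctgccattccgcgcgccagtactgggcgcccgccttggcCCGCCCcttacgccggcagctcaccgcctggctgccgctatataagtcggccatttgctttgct
Slc25a36: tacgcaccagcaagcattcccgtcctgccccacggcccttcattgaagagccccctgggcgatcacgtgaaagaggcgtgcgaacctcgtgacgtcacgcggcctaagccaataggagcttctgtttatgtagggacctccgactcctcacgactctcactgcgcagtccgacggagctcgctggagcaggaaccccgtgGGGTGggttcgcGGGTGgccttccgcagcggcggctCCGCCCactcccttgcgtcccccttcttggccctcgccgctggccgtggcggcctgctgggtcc
Slc25a39: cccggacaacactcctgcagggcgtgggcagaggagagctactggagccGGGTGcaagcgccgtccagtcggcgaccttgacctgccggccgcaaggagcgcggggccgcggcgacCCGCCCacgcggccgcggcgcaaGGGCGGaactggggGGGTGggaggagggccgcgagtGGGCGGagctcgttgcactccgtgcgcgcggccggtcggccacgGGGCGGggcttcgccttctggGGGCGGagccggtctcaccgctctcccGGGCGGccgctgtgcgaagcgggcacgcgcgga

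The letters CACCC occur 1 time in each of the Slc25a4 and Slc25a5 windows and 2 times in each of the Slc25a36 and Slc25a39 windows. The letters GGGCGG occur 6 times in the Slc25a39 window and 1 time in each of the other windows. RefSeq windows were matched for 28 of the 37 members. A CACCC match on either strand was present in at least 1 window of 20 of the 28, or 71.4%, against 67.0% of the 8260 tested genes with a window. A GGGCGG match was present for 25 of the 28, or 89.3%, against 68.9%. These letter matches are descriptions and show no binding.

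The carriers spanned more than 3 orders of magnitude in level, and the order was led by those of oxidative ATP supply. Slc25a4, the ADP/ATP carrier of heart and muscle, made up 61.6%, 56.6% and 65.5% of the summed FPKM of the members across K15SKO 1 to 3, compared with 67.3%, 66.1% and 68.1% in MyoCre 1 to 3. Slc25a3, the phosphate carrier, made up 19.2% to 21.3% in K15SKO and 16.1% to 17.7% in MyoCre. The Slc25a4 shares did not overlap between the groups, and neither did those of Slc25a3. Both are parts of the same sum, so they are not separate results, and K15SKO 3 at 65.5% lay close to MyoCre 2 at 66.1%. As FPKM, both genes overlapped between the groups, whereas 24.7% of all genes tested did not. All members together summed to 3478, 3207 and 4939 FPKM across K15SKO 1 to 3, compared with 4256, 4214 and 4161 FPKM in MyoCre 1 to 3. The summed level of the MyoCre libraries thus lay inside the K15SKO range. As a share of all FPKM in the library, the members made up 0.866%, 0.809% and 1.06% across K15SKO 1 to 3. That share was 1.07%, 1.06% and 0.983% in MyoCre 1 to 3, so by share K15SKO 3 lay within the MyoCre values. Next in level came Slc25a11 and Slc25a12, then Slc25a39, Slc25a5 and Slc25a51, whose ranges overlap one another across libraries. At the low end, Slc25a14, Slc25a45 and Slc25a13 had means of 1.59, 1.12 and 1.03 FPKM. Below the level rule, the nearest gene was Slc25a53 at 0.184 FPKM, and 8 genes, among them Slc25a2, Slc25a18, Slc25a21, Slc25a31, Slc25a41, Slc25a43 and Slc25a48, lay at or under that level. Slc25a13 and Slc25a45 averaged under 1 FPKM in MyoCre and met the rule only through K15SKO.

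**Figure D1:**
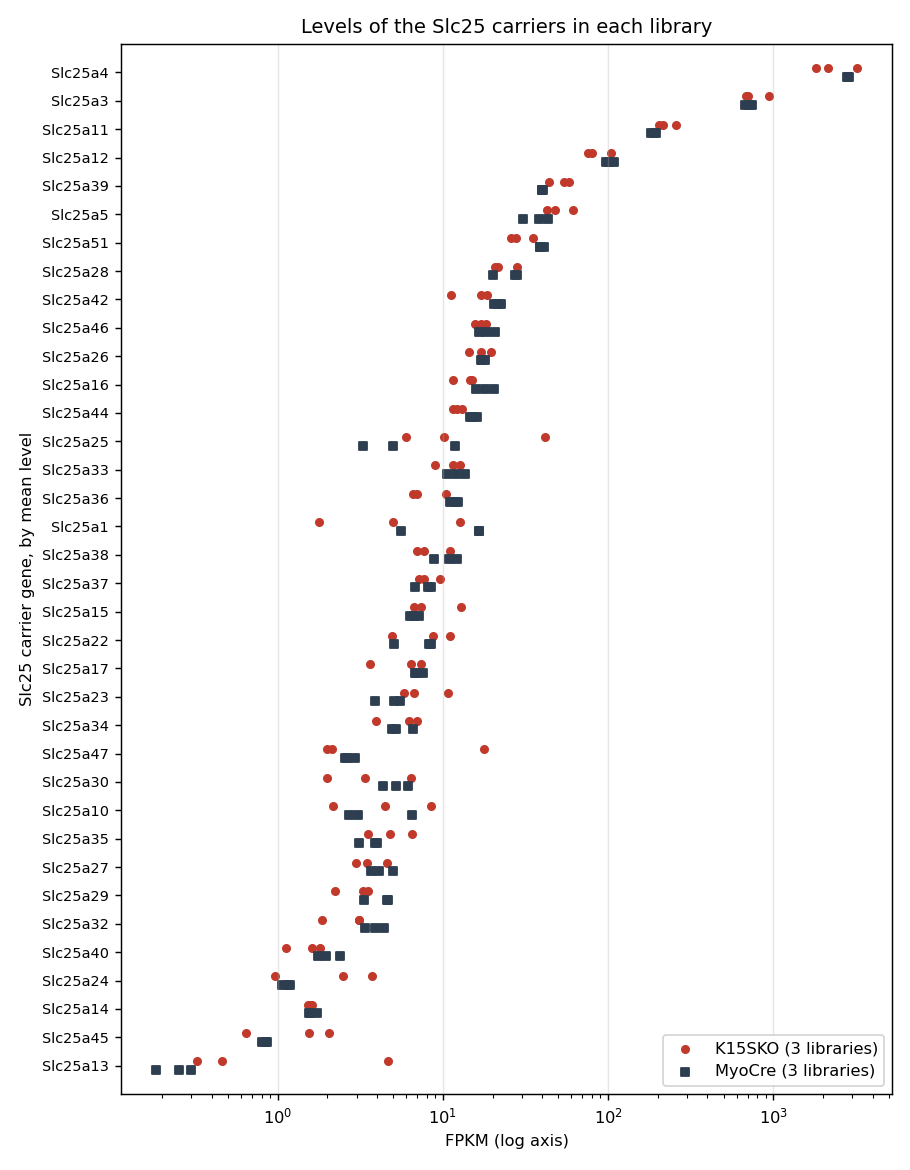
FPKM of 36 of the 37 Slc25 carriers on a log axis, ordered by mean level, with each circle 1 K15SKO library and each square 1 MyoCre library. Slc25a4 and Slc25a3 stand above all other members, and the K15SKO circles of Slc25a25, Slc25a47 and Slc25a13 include 1 library far to the right of the others.

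Set against the MyoCre libraries, no carrier passed the test in K15SKO. Each of 11607 genes with a mean of at least 1 FPKM was tested on log2(FPKM + 1) with limma, two-sided, with Benjamini-Hochberg adjustment, and 6 genes, or 0.0517%, passed an adjusted p of 0.05, 2 of them higher (0.0172%) and 4 lower (0.0345%). At an unadjusted p under 0.05 stood 7 of the 37 carriers, or 18.9%, near the 16.5% of all genes tested; 2 were higher (5.41% against 8.43%) and 5 lower (13.5% against 8.12%). Those counts depended on single libraries. Without K15SKO 1, 2 or 3 in turn there were 2, 6 and 15 such carriers, and without MyoCre 1, 2 or 3 there were 4, 3 and 0. The share of all genes is not given beside these counts, so they are not read as a result about the carriers. Without K15SKO 3 the limma test called 7 of 37 carriers and 2743 of 11607 genes, 3 of the carriers higher and 4 lower. Slc25a45 was among the higher ones, but it met the level rule only through K15SKO, so its call is not read as a result. The labels give no ground for leaving that library out. The K15SKO and MyoCre values separated completely for 10 carriers, 27% against 24.7% of all genes, with 4 higher (10.8% against 13.4%; Slc25a13 among them met the level rule only through K15SKO) and 6 lower (16.2% against 11.3%). The median log2 difference, K15SKO minus MyoCre, was −0.05 over the carriers and −0.01 over all genes, whereas the median absolute difference was 0.30 over the carriers and 0.21 over all genes. By role, the median was 0.11 over 9 ADP/ATP, phosphate and CoA carriers, −0.06 over 10 carboxylate and amino acid carriers, −0.11 over 10 cofactor, nucleotide, iron and glutathione carriers and −0.01 over 8 uncoupling-like and orphan carriers.

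**Figure D2:**
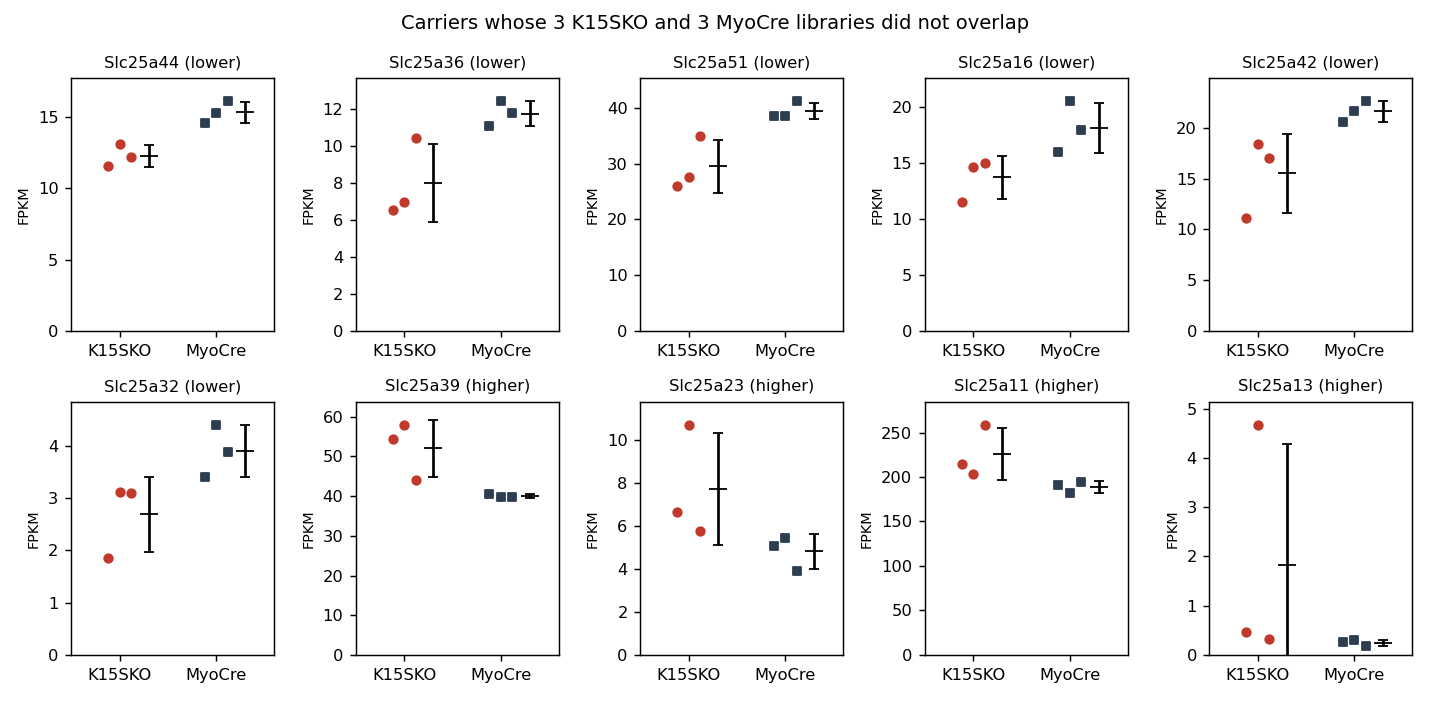
FPKM of the 10 carriers whose groups did not overlap, with K15SKO libraries as circles left of MyoCre libraries as squares, in replicate order, and the mean ± SD (n = 3) beside each group. The 6 carriers lower in K15SKO come before the 4 higher ones, and the Slc25a13 bar is carried by K15SKO 2 at 4.66 FPKM; its error bar runs below the axis.

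Among the carriers of adenine nucleotides, phosphate and coenzyme A, 3 of 9 did not overlap between the groups, 1 higher and 2 lower, or 33.3% against 24.7% of all genes tested. Slc25a4, on chromosome 8 from 46206797 to 46211284 on the minus strand of GRCm38, was listed at 2142, 1816 and 3233 FPKM across K15SKO 1 to 3, compared with 2865, 2787 and 2833 FPKM in MyoCre 1 to 3. K15SKO 1 and 2 lay below every MyoCre library and K15SKO 3 above every one. K15SKO 3 also had the highest sum over all genes, 466756 FPKM, against 397426 to 423214 FPKM in MyoCre. The 6 slow fibre markers summed to 514.5, 101 and 895 FPKM in K15SKO 1 to 3. In MyoCre 1 to 3 they summed to 148, 227 and 16.99 FPKM. The fast fibre markers found, Myh2, Mylpf, Tnni2 and Tnnc2, summed to 25842, 25532 and 42584 FPKM in K15SKO 1 to 3. Their sums in MyoCre 1 to 3 were 34689, 34674 and 40826 FPKM. Both the slow and the fast sums were highest in K15SKO 3, and the part of fibre type in the Slc25a4 values was not tested. The log2 difference of Slc25a4 was −0.28 (SE 0.23, limma adjusted p = 0.486). It was −0.52 without K15SKO 3 (limma adjusted p = 0.0226, within a range of 0.0226 to 0.858 over the alternatives). Slc25a5, the adenine nucleotide carrier of dividing and non-muscle cells, on chromosome X from 36795651 to 36798807, stood at 48.01, 61.0 and 42.4 FPKM across K15SKO 1 to 3, compared with 37.98, 43.2 and 30.6 FPKM in MyoCre. The groups overlapped by 1 library each, and the log2 difference was 0.43 (SE 0.19, limma adjusted p = 0.310). The pseudogene row Slc25a5-ps was at 0.0407 FPKM in K15SKO 2 and listed at 0 in the other libraries. Slc25a3 was at 700, 685 and 948 FPKM across K15SKO 1 to 3, compared with 717, 745 and 670 FPKM in MyoCre, with overlapping groups and a limma adjusted p of 0.692.

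Slc25a42, which exchanges coenzyme A for adenine nucleotides, was at 11.1, 18.4 and 16.98 FPKM across K15SKO 1 to 3, compared with 20.5, 21.6 and 22.6 FPKM in MyoCre 1 to 3. All K15SKO values were below all MyoCre values (log2 difference −0.48, SE 0.19, limma adjusted p = 0.293). Slc25a16, a related carrier linked to coenzyme A, was at 11.5, 14.7 and 14.97 FPKM in K15SKO, against 15.97, 20.5 and 17.9 FPKM in MyoCre, again without overlap (log2 difference −0.38, SE 0.14, limma adjusted p = 0.288). Slc25a17, a peroxisomal carrier of the same cofactors, was low in K15SKO 1 alone, at 3.63 FPKM, with 6.39 and 7.41 FPKM in K15SKO 2 and 3 against 7.08 ± 0.441 FPKM in MyoCre (SD, n = 3). The genes lie on chromosome 8 from 70184340 to 70212305 and chromosome 10 from 62920633 to 62946498 for Slc25a42 and Slc25a16.

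The calcium-regulated ATP-Mg/phosphate carriers, which adjust the adenine nucleotide pool of the matrix, were all higher on average in K15SKO but in different libraries. Slc25a23 was at 6.66, 10.7 and 5.78 FPKM across K15SKO 1 to 3, compared with 5.09, 5.46 and 3.90 FPKM in MyoCre, without overlap (log2 difference 0.55, SE 0.22, limma adjusted p = 0.299). Its highest value was in K15SKO 2, the library with the most hepatocyte transcripts, and the difference was 0.32 without that library; the part of liver RNA was not tested. Slc25a24 was at 3.73, 2.50 and 0.958 FPKM across K15SKO 1 to 3, compared with 1.13 ± 0.0640 FPKM in MyoCre (SD, n = 3), with K15SKO 3 below and K15SKO 1 and 2 above the MyoCre libraries. The macrophage marker sum was likewise high in K15SKO 1 and 2 and not in K15SKO 3, and its part in the Slc25a24 values was not tested. Slc25a25 was at 5.99, 10.1 and 41.5 FPKM across K15SKO 1 to 3, compared with 11.9, 4.97 and 3.27 FPKM in MyoCre. K15SKO 3 stood apart, the MyoCre values also spread widely, and the log2 difference of 1.11 (SE 0.72, limma adjusted p = 0.423) was 0.35 without K15SKO 3. Exons of Slc25a25 share 379 bases with Naif1 on the opposite strand, and whether the libraries kept strand is not stated, so its value is uncertain.

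Of 10 carriers of carboxylates and amino acids, Slc25a44 was lower and Slc25a11 higher without overlap. Slc25a13 separated too, but it met the level rule only through K15SKO, so its separation is not read as a result; with it the count was 3 of 10, against 24.7% of all genes. Slc25a44, which brings branched-chain amino acids into mitochondria and was described in brown fat, had the smallest unadjusted p of the family (0.0179). It was listed at 11.6, 13.1 and 12.2 FPKM across K15SKO 1 to 3, compared with 14.6, 15.3 and 16.1 FPKM in MyoCre 1 to 3. The 2 groups were each tight and did not overlap, and K15SKO averaged 12.3 ± 0.760 FPKM and MyoCre 15.3 ± 0.750 FPKM (SD, n = 3 each). The log2 difference was −0.30 (SE 0.09, limma adjusted p = 0.272) and ran from −0.34 to −0.24 over 16 alternatives, with adjusted p from 0.0764 to 0.581. The gene lies on chromosome 3 from 88410498 to 88425139 on the minus strand, with no exon shared with another gene of the table.

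Slc25a11, the 2-oxoglutarate/malate carrier of the malate-aspartate shuttle, was at 215, 203 and 258 FPKM across K15SKO 1 to 3, compared with 191, 182 and 195 FPKM in MyoCre (log2 difference 0.25, SE 0.13, limma adjusted p = 0.359). It was higher in 3 of 3 K15SKO libraries, and 189 of its 2120 exonic bases overlap Rnf167 on the opposite strand. Slc25a12, the calcium-sensitive aspartate/glutamate carrier of muscle and the partner of Slc25a11 in that shuttle, was at 80.4, 76.0 and 104 FPKM in K15SKO, against 97.7, 109 and 101 FPKM in MyoCre. K15SKO 1 and 2 lay below the MyoCre libraries and K15SKO 3 among them (limma adjusted p = 0.392, and 0.0342 without K15SKO 3, within a range of 0.0342 to 0.656 over the alternatives).

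Slc25a13, Slc25a15 and Slc25a47, named together after their values were seen, had their highest values in K15SKO 2, the library with 5692 FPKM of hepatocyte markers. Slc25a13, the liver aspartate/glutamate carrier citrin, was at 0.459, 4.66 and 0.327 FPKM across K15SKO 1 to 3, compared with 0.252, 0.299 and 0.185 FPKM in MyoCre. Slc25a15, the ornithine carrier of the urea cycle, was at 7.41, 12.96 and 6.72 FPKM in K15SKO, against 6.35, 7.17 and 6.65 FPKM in MyoCre. Slc25a47, a carrier expressed mainly in liver, was at 2.13, 17.7 and 1.99 FPKM in K15SKO, against 2.96, 2.54 and 2.62 FPKM in MyoCre. For Slc25a47 the other 2 K15SKO libraries were below every MyoCre library. Without K15SKO 2 the log2 differences were 0.16 for Slc25a13, 0.06 for Slc25a15 and −0.28 for Slc25a47, against 0.84, 0.33 and 0.59 with it. K15SKO 2 was the highest of the 6 libraries for 11 of 37 carriers, 29.7% against 14.2% of all genes tested. The part of liver RNA in these values was not tested.

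Carriers linked to fat synthesis varied within both groups. Slc25a1, the citrate carrier that exports carbon for fatty acid synthesis, was at 4.98, 12.7 and 1.78 FPKM across K15SKO 1 to 3, compared with 16.5, 16.6 and 5.57 FPKM in MyoCre 1 to 3. The low MyoCre value was in MyoCre 3, which also had the fewest adipocyte transcripts of its group, with summed markers of 560, 1064 and 411 FPKM in MyoCre 1 to 3. Within K15SKO the order was the reverse. There the adipocyte markers summed to 180, 118 and 234 FPKM in K15SKO 1 to 3, with the highest Slc25a1 value at the lowest sum. The part of fat in the Slc25a1 values was not tested. Its log2 difference was −1.05 (SE 0.65, limma adjusted p = 0.407) and −1.63 without K15SKO 2 (limma adjusted p = 0.424, within a range of 0.270 to 0.644). Slc25a10, the dicarboxylate carrier, was at 4.47, 8.43 and 2.18 FPKM in K15SKO, against 2.71, 6.47 and 3.05 FPKM in MyoCre, with full overlap and its highest value in K15SKO 2 (log2 difference 0.18, and −0.21 without that library). The glutamate carrier Slc25a22, the glycine carrier Slc25a38 and the basic amino acid carrier Slc25a29 overlapped too, with log2 differences of 0.13, −0.30 and −0.38.

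**Figure D3:**
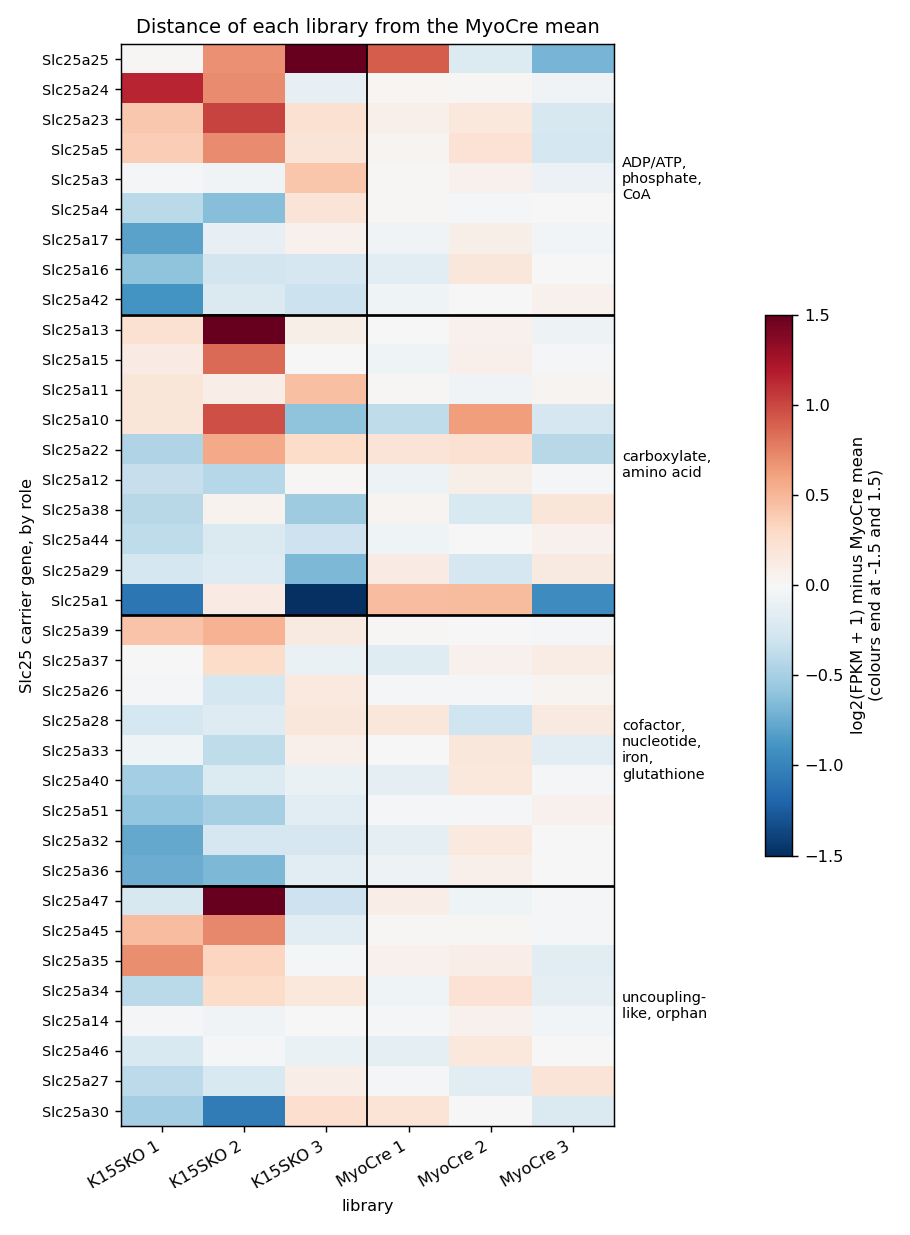
Difference between log2(FPKM + 1) in each library and the MyoCre mean, for 36 of the 37 carriers in 4 role groups, with the K15SKO libraries left of the MyoCre libraries, red above and blue below the MyoCre mean, and colours ending at −1.5 and 1.5. Slc25a13 and Slc25a47 are red in K15SKO 2, Slc25a25 in K15SKO 3, and Slc25a36, Slc25a32, Slc25a51 and Slc25a40 are blue in K15SKO 1 and 2.

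Of the cofactor, nucleotide, iron and glutathione carriers, 4 of 10 did not overlap between the groups, against 24.7% of all genes; 3 were lower, against 11.3%, and 1 higher, against 13.4%. Slc25a51, the mitochondrial NAD carrier, was at 26.01, 27.6 and 34.96 FPKM across K15SKO 1 to 3, compared with 38.5, 38.6 and 41.1 FPKM in MyoCre 1 to 3. Every K15SKO library was lower, K15SKO 3 least so (log2 difference −0.41, SE 0.13, limma adjusted p = 0.275, and 0.0161 without K15SKO 3, within a range of 0.0161 to 0.581). Slc25a36 was at 6.57, 6.96 and 10.4 FPKM in K15SKO, against 11.1, 12.4 and 11.8 FPKM in MyoCre, the same order of libraries (log2 difference −0.53, SE 0.17, limma adjusted p = 0.273, and 0.0110 without K15SKO 3, within a range of 0.0110 to 0.581). Slc25a32, which carries folate and flavin cofactors, was at 1.86, 3.11 and 3.09 FPKM in K15SKO, against 3.39, 4.39 and 3.89 FPKM in MyoCre (log2 difference −0.42, SE 0.18, limma adjusted p = 0.303).

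Slc25a39, needed for glutathione import, was the higher one, at 54.3, 57.9 and 44.02 FPKM across K15SKO 1 to 3, compared with 40.6, 39.8 and 39.7 FPKM in MyoCre 1 to 3. The MyoCre libraries lay within about 1 FPKM of one another, and all K15SKO libraries were above them (log2 difference 0.36, SE 0.13, limma adjusted p = 0.282). Its paralog Slc25a40 was at 1.12, 1.62 and 1.81 FPKM in K15SKO, against 1.74, 2.37 and 1.96 FPKM in MyoCre, so the paralogs had log2 differences of opposite sign, 0.36 and −0.27, and the contrast between them was not tested. Slc25a51 lies on chromosome 4 from 45395923 to 45408766, Slc25a36 on chromosome 9 from 97074961 to 97111157 and Slc25a39 on chromosome 11 from 102402985 to 102407946, all on the minus strand.

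Other cofactor carriers differed by less than their spread. The mitoferrins Slc25a37 and Slc25a28, which bring iron into mitochondria, averaged 8.15 ± 1.27 and 23.5 ± 4.03 FPKM in K15SKO, against 7.78 ± 0.916 and 25.2 ± 4.42 FPKM in MyoCre (SD, n = 3 each). The S-adenosylmethionine carrier Slc25a26 averaged 16.96 ± 2.54 FPKM in K15SKO and 17.5 ± 0.502 FPKM in MyoCre, and the pyrimidine nucleotide carrier Slc25a33 averaged 11.1 ± 1.91 FPKM in K15SKO and 12.1 ± 1.54 FPKM in MyoCre (SD, n = 3 each).

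Of the 8 uncoupling-like and orphan carriers, 0 separated the groups, against 24.7% of all genes, and 0 had an unadjusted p under 0.05, against 16.5%. Slc25a30, a carrier described in kidney mitochondria, was at 3.36, 1.99 and 6.38 FPKM across K15SKO 1 to 3, compared with 6.14, 5.19 and 4.33 FPKM in MyoCre, low in K15SKO 1 and 2 and above all MyoCre libraries in K15SKO 3. Slc25a45, an amino acid carrier-like gene, was at 1.54, 2.03 and 0.639 FPKM in K15SKO, against 0.839 ± 0.0302 FPKM in MyoCre (SD, n = 3), high in K15SKO 1 and 2 alone. Slc25a35 was at 6.53, 4.81 and 3.54 FPKM in K15SKO, against 3.88, 3.99 and 3.13 FPKM in MyoCre, and 1151 of its 3677 exonic bases overlap Rangrf on the opposite strand, so its value is uncertain. Slc25a46, an outer membrane protein of mitochondrial shape, and the uncoupling-like Slc25a14 and Slc25a27 had log2 differences of −0.12, −0.02 and −0.17. Slc25a34 differed by 0.01, with adjusted p of 0.980 by limma.

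The K15SKO libraries spread more widely than the MyoCre libraries for 34 of 37 carriers, 91.9% against 77.3% of all genes tested. The median SD of log2(FPKM + 1) was 0.30 in K15SKO and 0.15 in MyoCre over the carriers, and 0.22 and 0.12 over all genes. K15SKO 3 was the K15SKO library nearest to the MyoCre mean for 22 of 37 carriers, 59.5% against 58.7% of all genes. Of the carriers, 20 lay below the MyoCre range in K15SKO 1, 16 in K15SKO 2 and 13 in K15SKO 3, which is 54.1%, 43.2% and 35.1%, against 43.2%, 43.8% and 25.3% of all genes. Above the range lay 10, 14 and 11 carriers in K15SKO 1 to 3, or 27%, 37.8% and 29.7%, against 37.2%, 33.4% and 36.1%.

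Paired isoforms with the same substrate were compared as log2 ratios of FPKM + 1 within each library and tested by exact permutation, two-sided, with adjustment over 5 pairs; no p below 0.1 can be reached with 3 libraries a group. None of the 5 passed. The ratio of Slc25a36 to Slc25a33, the pyrimidine nucleotide carriers, was −0.72, −0.33 and −0.27 across K15SKO 1 to 3, compared with −0.11, −0.13 and 0.14 in MyoCre 1 to 3. With 1 added to each FPKM, this was the single ratio whose groups did not overlap. Its difference was −0.40 (exact permutation p = 0.1, adjusted 0.5) and stayed between −0.49 and −0.26 as each library was left out. The ratio of Slc25a5 to Slc25a4 was −5.45, −4.87 and −6.22 in K15SKO, against −6.20, −5.98 and −6.49 in MyoCre, a difference of 0.71 (exact permutation p = 0.3, adjusted 0.5). Slc25a5 thus stood at 2.24%, 3.36% and 1.31% of the Slc25a4 FPKM across K15SKO 1 to 3, compared with 1.33%, 1.55% and 1.08% in MyoCre, with K15SKO 3 inside the MyoCre values. The difference was 1.06 without K15SKO 3 and 0.39 without K15SKO 2.

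The ratio of Slc25a13 to Slc25a12 differed by 1.09 (exact permutation p = 0.2, adjusted 0.5) and by 0.33 without K15SKO 2, the library with the highest hepatocyte marker sum. The difference was 1.36 with 0.5 added to each FPKM and 1.865 with 0.1 added, without overlap in either (exact permutation p = 0.1 each). As Slc25a13 met the level rule only through K15SKO, this ratio is not read as a result. The mitoferrin ratio, Slc25a37 to Slc25a28, differed by 0.15 (exact permutation p = 0.7, adjusted 0.8) and had the other sign without K15SKO 2 (−0.01) or MyoCre 1 (−0.02). The ratio of Slc25a24 to Slc25a25 differed by −0.53 (exact permutation p = 0.8, adjusted 0.8) and by 0.58 without K15SKO 3.

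**Figure D4:**
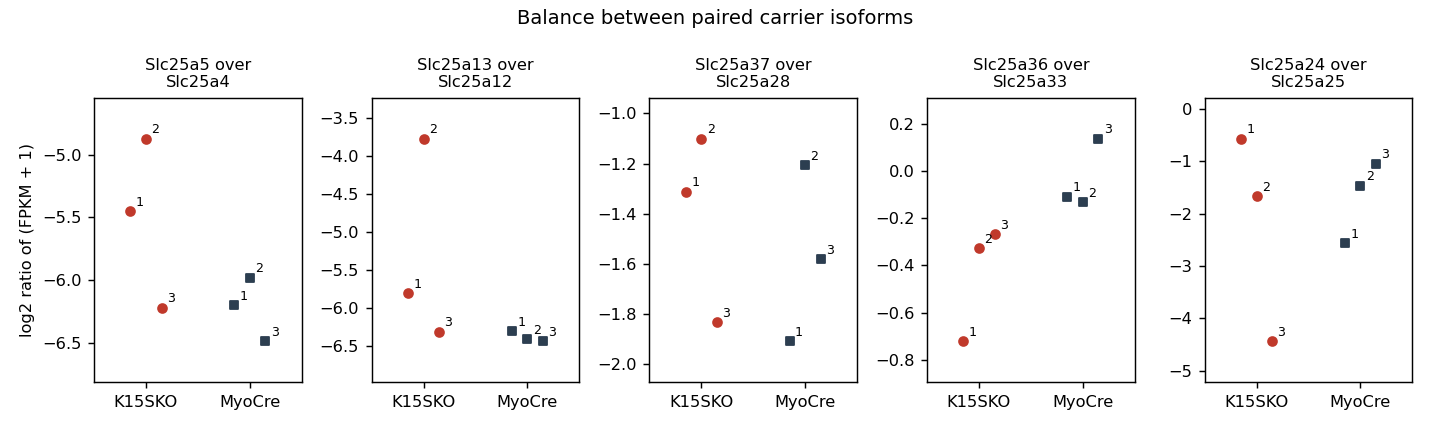
Log2 ratio of FPKM + 1 for 5 carrier pairs, each panel with its own axis, K15SKO libraries as circles left of MyoCre libraries as squares, numbered by replicate. The Slc25a36 to Slc25a33 ratio is lower in every K15SKO library than in any MyoCre library, and the other 4 pairs overlap.

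Transport genes outside the rule, shuttle enzymes and genes linked to ATP supply were read from the same limma fit, and 0 of them passed. Of 17 tested genes for other mitochondrial carriers and transporters, 1 was higher and 2 lower at an unadjusted p under 0.05, or 17.6% against 16.5% of all genes. Without overlap were 7 of the 17, 4 higher and 3 lower, or 41.2% against 24.7% of all genes. The median log2 difference was −0.12. Those at an unadjusted p under 0.05 were the uncoupling proteins, carriers whose symbols lie outside the rule. Ucp2, found in immune and many other cells, was at 7.76, 4.37 and 2.76 FPKM across K15SKO 1 to 3, compared with 1.98, 2.46 and 1.45 FPKM in MyoCre (log2 difference 0.94, limma adjusted p = 0.279). Ucp1, the uncoupling protein of brown fat, was at 0, 0.0171 and 0.181 FPKM in K15SKO, against 45.6, 23.6 and 1.62 FPKM in MyoCre. The summed brown adipocyte markers, which include it, were at 1.97, 6.84 and 1.56 FPKM in K15SKO against 72.8, 47.8 and 3.36 FPKM in MyoCre. These sums overlapped, with K15SKO 2 above MyoCre 3. Of the 3 brown adipocyte markers, Ucp1 was the only 1 lower in every K15SKO library than in any MyoCre library. Ucp3, the muscle form, was the third, with a log2 difference of −1.88 (limma adjusted p = 0.279). The pyruvate carrier genes Mpc1 and Mpc2 had log2 differences of −0.41 and −0.16.

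The enzymes of the malate-aspartate and glycerol phosphate shuttles had 4 of 6 members at an unadjusted p under 0.05, against 16.5% of all genes. The same 4 were without overlap, against 24.7%, with 2 higher and 2 lower. The malate-aspartate enzymes Got2 and Mdh1 were the higher ones. Got2, the matrix aspartate aminotransferase, was at 186, 187 and 196 FPKM across K15SKO 1 to 3, compared with 141, 142 and 151 FPKM in MyoCre 1 to 3 (log2 difference 0.39, limma adjusted p = 0.269). Mdh1, cytosolic malate dehydrogenase, averaged 465 ± 43.9 FPKM in K15SKO and 344 ± 6.70 FPKM in MyoCre (SD, n = 3 each, limma adjusted p = 0.272). The glycerol phosphate shuttle enzymes Gpd2 and Gpd1 were the lower ones. Gpd2 was at 20.6, 27.4 and 42.99 FPKM in K15SKO, against 57.0, 61.3 and 66.8 FPKM in MyoCre (log2 difference −1.06, limma adjusted p = 0.259). Gpd1 was at 148, 179 and 351 FPKM in K15SKO, against 395, 374 and 373 FPKM in MyoCre (log2 difference −0.85, limma adjusted p = 0.286). The adipocyte markers were lower in K15SKO too, with sums of 180, 118 and 234 FPKM in K15SKO 1 to 3 and 560, 1064 and 411 FPKM in MyoCre 1 to 3. Within MyoCre neither Gpd1 nor Gpd2 followed the order of these sums. Within K15SKO the highest sum and the highest Gpd1 and Gpd2 were in K15SKO 3, whereas the lowest sum was in K15SKO 2 and the lowest Gpd1 and Gpd2 in K15SKO 1. The part of fat in the Gpd1 and Gpd2 values was not tested.

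Of 6 tested genes for the calcium uniporter, 2 were higher and 1 lower at an unadjusted p under 0.05, or 50.0% against 16.5% of all genes. Without overlap 2 were higher and 1 lower, or 50.0% against 24.7%. Micu2, a regulatory subunit, averaged 30.8 ± 9.34 FPKM in K15SKO and 19.4 ± 1.18 FPKM in MyoCre. Its relative Micu3 averaged 3.57 ± 1.77 FPKM in K15SKO against 6.22 ± 0.412 FPKM in MyoCre (SD, n = 3 each). Micu2 was at 38.1, 34.1 and 20.3 FPKM in K15SKO 1 to 3 and overlapped MyoCre through K15SKO 3. The outer membrane channel Vdac1 was at 565, 581 and 1080 FPKM in K15SKO, against 867, 874 and 932 FPKM in MyoCre, low in K15SKO 1 and 2 and high in K15SKO 3 as Slc25a4 was. None of 3 channel genes and none of 11 energy partners, among them mitochondrial creatine kinase Ckmt2 and the ATP synthase subunits Atp5a1 and Atp5b, had an unadjusted p under 0.05, against 16.5% of all genes. Of the energy partners, Atpif1 and Atp5h were higher without overlap (18.2%, against 24.7% of all genes). A log2 difference above 0 was found for 10 of 11, against 5576 of all 11607 genes. The energy partners had a median log2 difference of 0.09, with library medians of −0.03, −0.18 and 0.44 from the MyoCre mean in K15SKO 1 to 3. K15SKO 3, where Vdac1 and 7 of the 11 energy partners were highest, also had the highest slow and fast fibre marker sums. The part of fibre type in these values was not tested.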

How the data were processed

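RNA of 6 quadriceps libraries, 3 K15SKO and 3 MyoCre, was measured. Per the submitters' processing notes, the authors used STAR, Cufflinks, Cuffdiff and the mm10 build; the sources used here give neither versions nor annotation nor strandedness. What the authors deposited is read as FPKM, from these tools and from the values. Column sums ran from 396375 FPKM in K15SKO 2 to 466756 FPKM in K15SKO 3. Depth and counting error are unknown. Columns were matched by the sample descriptions, and 0 belonged to no sample. All 37 members matched GENCODE M21 on GRCm38, the mm10 assembly, and 7 share exonic bases with another gene of the table, so their values are uncertain where reads were not separated by strand.

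The 11607 genes averaging 1 FPKM or more entered a fit of log2(FPKM + 1), which understates the change of low genes, with limma 3.58.1 in R 4.3.3 (eBayes with trend), two-sided, with Benjamini-Hochberg adjustment at 0.05; the script was tested on simulated data. Exact permutation tests and tables came from Python 3.11.15 (scipy 1.17.1, pandas 2.3.3, numpy 2.4.6); figures came from matplotlib 3.10.9. Each alternative moved a single choice: the filter (none, or 5 FPKM on average), the pseudocount (0.1 or 0.5), the scaling (quantile, or median of ratios), the eBayes step (robust, or with no trend), array weights, a block for the replicate number, or the omission of 1 library. Values are given for the 6 carriers per direction of smallest p, the 6 highest, the isoform pairs, Slc25a44, those nearest the level rule, and up to 3 genes per companion list; the others were named after their values were seen. Genes of like pattern were searched for but are not reported, and single-gene values of 1 carrier and 1 companion gene are not reported here, although both stay in the fit and the counts. Members, roles and lists were chosen with earlier results of these data known.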

Additional observations from a re-analysis of the deposited data

How the results depend on the processing

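Over 16 alternatives and 564 recomputed carrier differences, 27 of 36 carriers kept their direction and 9 did not. In at least 1 alternative 9 passed, among them Slc25a45, which met the level rule only through K15SKO. The count of carriers called was 7 of 37 with array weights, where 2398 of 11607 genes were called. It ran from 0 to 7 as each library was left out, the 7 coming without K15SKO 3, where 2743 genes were called. Slc25a4, Slc25a24, Slc25a36, Slc25a39 and Slc25a51 were called in both of these fits. The carriers at an unadjusted p under 0.05 numbered 17 of 37 with array weights, where 41.3% of all genes stood under it. They numbered 0 to 15 as each library was left out, for which the share of all genes is not given. Such counts are not read as a result about the carriers. Genes called over all tested were 2398 with array weights, 3 with no filter, 3 with the replicate block and 3 to 2743 as each library was left out. The replicate block changed no carrier call, with 10 of 37 carriers at an unadjusted p under 0.05, against 17.6% of all genes. Same-numbered libraries deviated together at correlations of 0.0024, 0.0851 and 0.0942, so the numbers are not taken as a pairing.

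As each library was left out, log2 differences crossed 0 for Slc25a10 (−0.21 to 0.575), Slc25a14 (−0.045 to 0.01), Slc25a22 (−0.087 to 0.422), Slc25a26 (−0.149 to 0.057), Slc25a3 (−0.037 to 0.197), Slc25a33 (−0.225 to 0.005), Slc25a34 (−0.13 to 0.22), Slc25a37 (−0.052 to 0.135), Slc25a47 (−0.28 to 1.05) and Vdac2 (−0.016 to 0.119). So did the ratios of Slc25a24 to Slc25a25 (−1.36 to 0.58) and Slc25a37 to Slc25a28 (−0.021 to 0.36). With array weights Slc25a3 was at −0.019, and with quantile normalization Slc25a34 was at −0.015. The cause was not tested. Carriers with a mean under 5 FPKM left the fit with that filter, which kept 25. Depth limits cannot be given without counts.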
